A study of Salmo trutta with 45 samples.

Results

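The transcripts described here are those of the mitogen-activated protein kinase (MAPK) cascade and of the dual specificity phosphatases (DUSPs) in livers of the brown trout, Salmo trutta. They were taken by name: a transcript was a member where any of its 3 annotation entries (its best match in zebrafish, in human or mouse, and in other fish) read mitogen-activated protein kinase or dual specificity phosphatase. This gave 155 of the 67093 transcripts in the 5 count tables. The 155 belonged to 64 Trinity components (groups of transcripts assembled from shared reads) and to 56 annotated genes, and 130 of them were listed in all 5 tables. By role, 37 transcripts of 8 genes were MAP4 kinases, 39 of 14 genes MAP3 kinases, 21 of 5 genes MAP2 kinases and 26 of 10 genes MAPKs. A further 7 transcripts of 3 genes encoded kinases activated by MAPKs, 7 of 5 genes scaffold or binding proteins, and 18 of 11 genes DUSPs. The files gave descriptions and no sequence, so the gene symbols used here follow the zebrafish description, or the human or mouse one where the zebrafish gene was uncharacterized.

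A MAPK cascade is a relay of protein kinases. A MAP4 kinase or a small GTPase activates a MAP3 kinase, which phosphorylates a MAP2 kinase, which phosphorylates a MAPK, and the MAPK then phosphorylates transcription factors and further kinases. The ERK branch is known for growth factor signals and the JNK and p38 branches for stress signals, among them oxidative stress in liver, while DUSPs remove phosphate from MAPKs and are themselves often transcribed in response to the cascade.

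The study exposed juvenile female brown trout for 14 days in flow-through tanks to Roundup, a herbicide formulation, or to glyphosate, its active ingredient, and sequenced liver RNA from single fish. The Roundup groups were LR (0.01 mg/L), MR (0.5 mg/L) and HR (10 mg/L, all as glyphosate acid equivalent), and the glyphosate groups were LG (0.01 mg/L) and HG (10 mg/L), each with 6 fish. The controls were 12 fish in water alone, made up of 2 control groups that the labels do not separate. Fish shared tanks, and the labels do not give the tank, so the p-values measure the spread between fish and cannot set tanks apart from treatments.

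Each fish gave 10223638 to 33291845 counted reads over the listed transcripts. The tissue label was checked against 13 hepatocyte marker genes (transferrin, apolipoproteins, fibrinogen chains and others), whose summed level was 81700 to 163500 CPM (read counts scaled to a common library size) in exposed livers and 85360 to 120900 CPM in control livers. Leukocyte markers (11 genes) summed to 152 to 364 CPM in exposed and 158 to 392 CPM in control livers, and red cell markers (3 genes) to 334 to 919 CPM in exposed and 264 to 704 CPM in control livers. Exocrine pancreas markers (4 genes) summed to 33.6 to 111 CPM in exposed and 39.3 to 130 CPM in control livers. In whole liver, fewer cells of a type and less RNA per cell cannot be told apart. For each transcript, the log2 level of a fish was set against the median of its remaining group mates. The absolute differences were then averaged across 49650 transcripts. By that average LG1, MR1, LR3, HR3 and MR4 (group and fish number) stood farthest from their groups, at 0.804, 0.769, 0.566, 0.546 and 0.527.

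Most member genes were read at low depth. The level of a gene in control livers was taken as the CPM summed over every transcript annotated to it and listed in all 5 tables, which was possible for 52 of the 56 genes. The mean ranged from 0.694 to 50.8 CPM over genes, with a median of 3.64 CPM, and of the 155 transcripts 93 averaged at least 1 CPM and 8 at least 10 CPM. These values are reads and are not corrected for transcript length, so they describe how precisely a gene was measured and give no order of expression between genes.

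Among MAP4 kinases, map4k3-2 (1 of 2 zebrafish genes described as map4k3) averaged 19.8 ± 2.68 CPM, map4k4-u (an uncharacterized zebrafish gene whose human match is MAP4K4) 17.0 ± 2.71 CPM and mink1, a kinase of the misshapen family, 11.7 ± 2.36 CPM (SD, n = 12 controls, as for all values of this paragraph). The MAP3 kinases with most reads were map3k19 at 50.8 ± 8.30 CPM, map3k5 at 36.9 ± 7.21 CPM and map3k6 at 19.3 ± 4.95 CPM. Map3k5 (ASK1) and map3k6 (ASK2) are apoptosis signal-regulating kinases, which feed the p38 and JNK branches under oxidative stress. In the MAP2 kinase layer, map2k6, an activator of p38, averaged 8.52 ± 1.76 CPM. Map2k4b, an activator of JNK and p38, averaged 8.47 ± 0.994 CPM, and map2k2a, an activator of ERK, averaged 7.70 ± 1.01 CPM. Of the MAPKs, mapk14b (a p38 alpha) averaged 18 ± 3.93 CPM, mapk6 (ERK3) 17.8 ± 3.72 CPM and mapk3 (ERK1) 7.18 ± 1.22 CPM, while mapk14a, the other p38 alpha gene, was read at 1.13 ± 0.433 CPM. The p38-activated kinases mapkapk2a and mapkapk3 averaged 12.7 ± 1.82 and 6.75 ± 1.34 CPM, and mapkapk5 averaged 1.04 ± 0.440 CPM. Of the scaffolds, mapk8ip1, which holds the JNK module together, averaged 16.8 ± 4.3 CPM. Wdr62, a JNK scaffold of which 1 of 3 transcripts carried a member description, averaged 4.19 ± 1.02 CPM, and mapkap1, a subunit of the mTORC2 complex, averaged 3.55 ± 0.823 CPM. The DUSPs with most reads were dusp22a at 10.5 ± 1.98 CPM, dusp5 (a nuclear phosphatase of ERK) at 4.54 ± 0.900 CPM and dusp6 (a cytoplasmic phosphatase of ERK) at 3.88 ± 0.939 CPM.

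**Figure D1:**
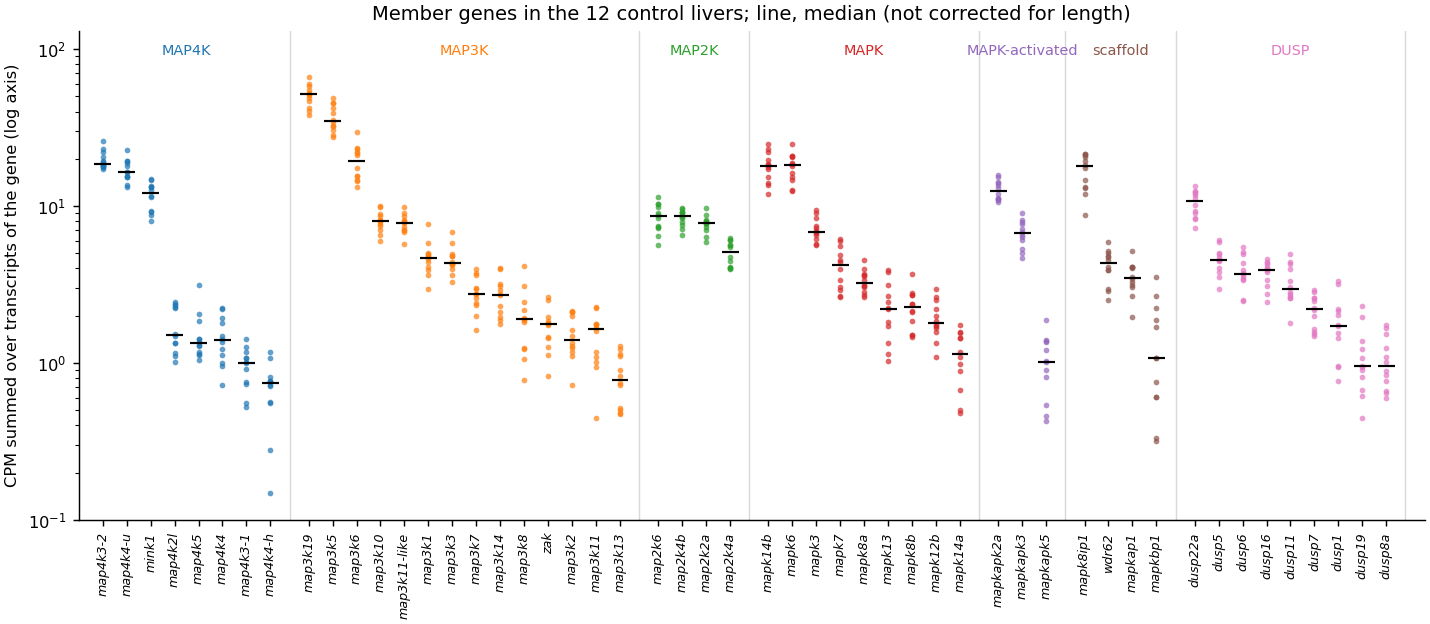
Read level of the member genes in the 12 control livers (y axis, CPM summed over the transcripts of the gene, log scale, x axis, genes grouped by role). Each point is 1 fish and each line a median. The levels span 0.694 to 50.8 CPM as means, and mapkbp1 shows the widest spread for its level.

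Control fish differed among themselves most for mapkbp1 (a MAPK-binding protein), with a coefficient of variation of 72.6%, dusp19 (49.4%), map3k8 (47.1%) and dusp1 (44.4%). The steadiest were map2k4b (11.7%), map2k2a (13.1%) and map4k3-2 (13.5%). The median over the 49 genes averaging at least 1 CPM was 24.3%. The genes with the widest spread averaged 1.11 to 1.98 CPM and the steadiest 7.70 to 19.8 CPM in control livers.

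Each exposed group was compared with the same 12 controls, so the 5 comparisons are not independent of each other. The test was edgeR's quasi-likelihood F test over the transcripts with a read count of at least 1 in 6 or more of the fish compared, adjusted by Benjamini-Hochberg, and a transcript was called at an adjusted p below 0.1. No member was called in any of the 5 comparisons, nor when LR was compared with LG or HR with HG. The share of all transcripts called was 0.0209% for LR, 0.00159% for MR, 0.00639% for HR, 0% for LG and 0.00157% for HG. The members were therefore also counted at an unadjusted p below 0.05 by the same test. For LR 8 of 141 members (5.67%) passed that level, beside 7.75% of all transcripts. For MR it was 21 of 144 (14.6%) beside 8.93%, and for HR 8 of 140 (5.71%) beside 7.34%. For LG it was 16 of 141 (11.3%) beside 6.72%, and for HG 8 of 140 (5.71%) beside 6.48%. In MR and LG the count moved with single fish. It was 8 in MR without MR1 and 7 in LG without LG1. A separate fit with the replicate number as a block left out no fish and gave 6 in each of these groups. Controls without a same-numbered exposed fish add nothing to that contrast, so it has less power. The shares of all transcripts at an unadjusted p below 0.05 in these settings were not counted.

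The number of calls depended on the tool. edgeR's exact test at the same adjusted threshold called 3 members for MR and 3 for LG, beside 0.992% and 0.446% of all transcripts, and none for LR, HR or HG, beside 0.163%, 0.671% and 0.0551%. DESeq2 called 1 member for MR, beside 0.743% of all transcripts, and none for LR (0.249% of all transcripts), HR (0.275%), LG (0.0504%) or HG (0.0346%). No member separated completely between exposed and control fish, where 0.037% of all transcripts did so for LR, 0.0223% for MR, 0.0272% for HR, 0.011% for LG and 0.0142% for HG.

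Over all members, the median log2 fold change (exposed over control) was 0.02 for LR, 0.03 for MR, -0.03 for HR, 0.07 for LG and -0.08 for HG, and the medians over all transcripts lay within 0.01 of 0. A positive log2 fold change was found for 51 of 140 members in HG, where 49.6% of all transcripts had one. The count was 79 of 141 for LR, 83 of 144 for MR, 65 of 140 for HR and 81 of 141 for LG. Of all transcripts 50.3%, 51.4%, 49.2% and 51.3% were positive in these groups. In HG the MAP3 kinases had a median of -0.12 with 10 of 37 positive, and the MAPKs had 7 of 23 positive. Of the marker genes in HG, 0 of 12 for fibroblasts and endothelium and 1 of 11 for leukocytes had a positive log2 fold change (medians -0.11 and -0.21), as did 9 of 9 for exocrine pancreas (median 0.67), and their part in the member values was not tested. The DUSP transcripts had a median of 0.52 in MR, with 5 of 18 at an unadjusted p below 0.05 (4 higher, 1 lower). The MAPK transcripts had 6 of 26 at that level in MR (4 higher, 2 lower). The MAP3 kinases had 6 of 35 in MR (4 higher, 2 lower) and 5 of 35 in LG (all higher). The MAP2 kinases had 0 of 20 in MR, and the MAP4 kinases had 1 of 34. The medians and counts of this paragraph were not repeated without single fish such as MR1, LG1 or HG1.

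Summed per gene, none of the 53 to 55 member genes tested was called in any exposed group by the quasi-likelihood test. Of all gene sums 0.0816% were called for LR, 0.271% for MR, 0.00903% for HR and 0% for LG and HG. At an unadjusted p below 0.05 there were 3 member genes for LR, 8 for MR, 5 for HR, 7 for LG and 3 for HG. These counts stand beside 9.33%, 11.6%, 8.45%, 7.54% and 7.25% of all gene sums. Positive log2 fold changes of gene sums numbered 37 of 53 for LR, 34 of 55 for MR and 25 of 54 for HR. For LG it was 34 of 55 and for HG 22 of 54. Of all gene sums 50.1%, 51.7%, 50.3%, 52.2% and 51.0% were positive in LR, MR, HR, LG and HG. As gene sums, 5 of 10 MAPKs and 5 of 14 MAP3 kinases were positive in HG. The DUSP gene sums had a median of 0.25 in MR, with 3 of 11 at an unadjusted p below 0.05 (all higher).

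**Figure D2:**
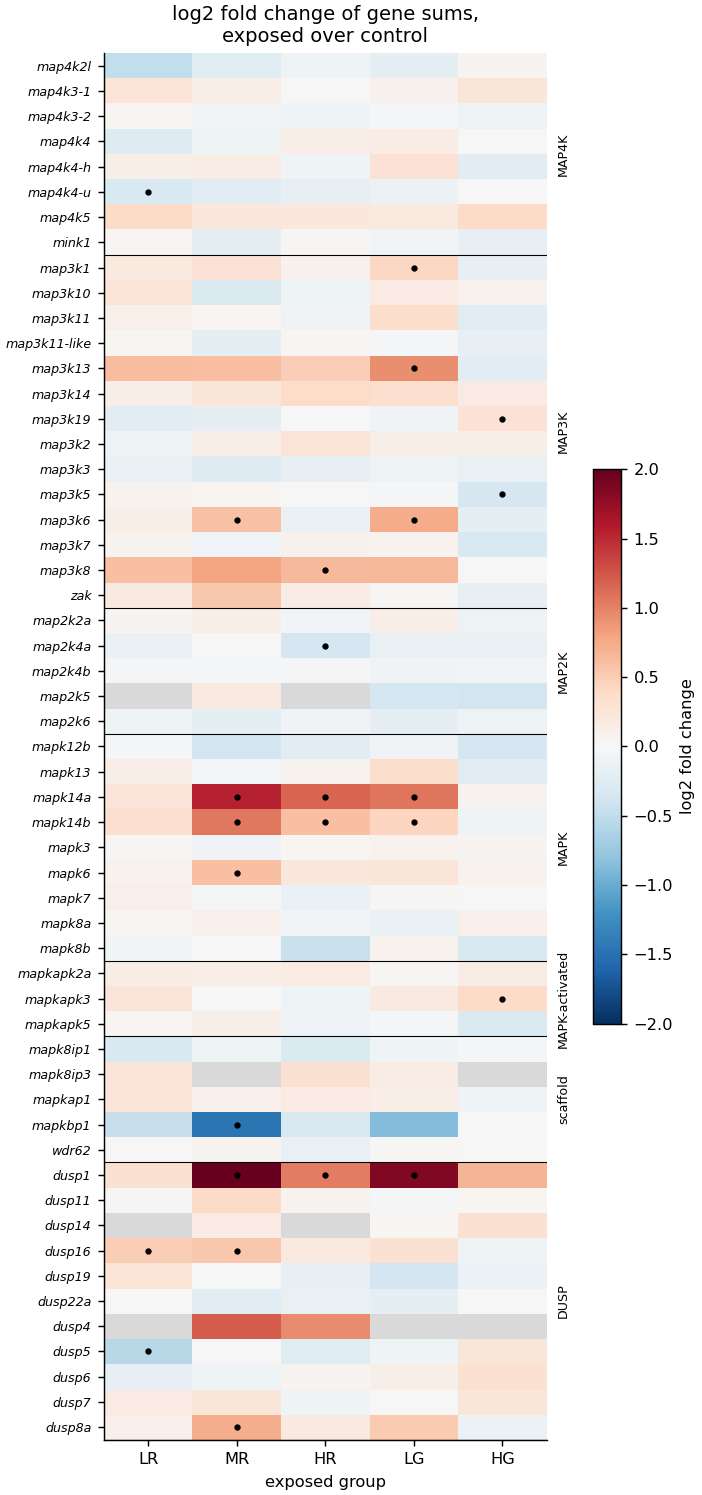
log2 fold change of the member genes, summed over its transcripts (colour scale, -2 to 2), for the 5 exposed groups (columns) over the 12 controls, with genes as rows grouped by role. Dots mark an unadjusted p below 0.05 in the quasi-likelihood test, none of which passed after adjustment, and grey marks genes not tested. The p38 genes mapk14a and mapk14b and the phosphatase gene dusp1 carry dots in MR, HR and LG.

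At the low Roundup dose 6 of the members at an unadjusted p below 0.05 were higher and 2 lower than in controls, beside 3.92% and 3.83% of all transcripts. With each gene represented by its transcript with most reads, the smallest p belonged to 2 phosphatases and 2 kinases. The ERK phosphatase dusp5 was read at 2.44 to 3.86 CPM (median 3.08) in LR livers, against 2.98 to 6.11 CPM (median 4.52) in control livers. All 6 LR fish lay below the control median and 3 lay below every control, though the groups overlapped. The log2 fold change was -0.53 (SE 0.160, edgeR quasi-likelihood adjusted p = 0.459, exact permutation p = 0.00259 over fish, two-sided and unadjusted). Dusp16, a phosphatase of JNK and p38, was read at 4.47 to 8.30 CPM (median 4.92) in LR livers, against 2.43 to 4.59 CPM (median 3.94) in control livers. Of the 6 LR fish 5 exceeded every control, with a log2 fold change of 0.51 (SE 0.154, edgeR adjusted p = 0.459, exact permutation p = 0.000754). Without LR3, the fish with most dusp16, the log2 fold change was 0.37.

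The p38-activated kinase mapkapk2a gave 6.73 to 8.28 CPM (median 7.39) in LR livers, against 3.86 to 8.23 CPM (median 5.48) in control livers. Every LR fish lay above the control median, and 1 lay above all controls (log2 fold change 0.37, SE 0.148, edgeR adjusted p = 0.556, exact permutation p = 0.0113). This was 1 of 4 mapkapk2a transcripts. Summed over its transcripts, mapkapk2a was at 11.2 to 15.7 CPM (median 14.9) in LR, against 10.6 to 15.8 CPM (median 12.5) in controls. LR4, at 11.2 CPM, lay below that control median. As a gene sum it had no unadjusted p below 0.05 in LR by the quasi-likelihood test. Map3k10, a mixed lineage kinase upstream of JNK, gave 3.09 to 6.52 CPM (median 3.66) in LR livers, against 1.94 to 4.86 CPM (median 2.96) in control livers. Its groups overlapped widely (log2 fold change 0.39, SE 0.193, edgeR adjusted p = 0.656, exact permutation p = 0.0582). The dusp1, mapk14a and mapk14b transcripts had log2 fold changes of 0.14, 0.26 and 0.42 in LR, with edgeR adjusted p of 0.958, 0.880 and 0.753. Without LR3 these values were -0.29, -0.08 and 0.12.

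At the middle Roundup dose 13 of the members at an unadjusted p below 0.05 were higher and 8 lower, beside 5.18% and 3.75% of all transcripts. The smallest p belonged to dusp1, a nuclear phosphatase that acts on p38 and JNK and is known as an immediate early gene, and to the p38 genes. Dusp1 was read at 0.799 to 26.5 CPM (median 1.1) in MR livers, against 0.258 to 2.05 CPM (median 1.19) in control livers. The 26.5 CPM came from MR1 and the next value, 3.23 CPM, from MR4, while the other 4 fish lay within the control range. The log2 fold change was 2.19 (SE 0.595, edgeR quasi-likelihood adjusted p = 0.245, exact test adjusted p = 0.00989, exact permutation p = 0.126). Without MR1 it was 0.28, and without MR1 and MR4 it was -0.25.

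Mapk14a was read at 0.678 to 11.7 CPM (median 1.25) in MR livers, against 0.477 to 1.76 CPM (median 1.14) in control livers. MR1 (11.7 CPM) and MR4 (4.79 CPM) again exceeded all controls and the other 4 did not. The log2 fold change was 1.54 (SE 0.468, edgeR quasi-likelihood adjusted p = 0.291, exact test adjusted p = 0.0514, DESeq2 adjusted p = 0.0918, exact permutation p = 0.0998), with 0.65 without MR1 and -0.15 without both fish. Mapk14b gave 6.63 to 106 CPM (median 8.69) in MR livers, against 6.49 to 16.1 CPM (median 10.4) in control livers. Here MR1 and MR4 stood at 106 and 40.2 CPM (log2 fold change 1.41, SE 0.441, edgeR quasi-likelihood adjusted p = 0.313, exact test adjusted p = 0.0764, exact permutation p = 0.247), and the value was 0.38 without MR1 and -0.48 without both. The mapk14a transcript and 3 of the 8 mapk14b transcripts came from 1 component, so reads of these genes could have been divided between them, whereas the mapk14b transcript given here came from another component.

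The ASK2 kinase map3k6 gave 8.84 to 43.1 CPM (median 17.2) in MR livers, against 8.59 to 20.3 CPM (median 12.0) in control livers, and only MR1 exceeded every control (log2 fold change 0.67, SE 0.251, edgeR adjusted p = 0.428, exact permutation p = 0.0578). Mapk6 gave 14.4 to 70.3 CPM (median 21.1) in MR livers, against 12.5 to 24.8 CPM (median 18.2) in control livers, again with 1 fish above every control (log2 fold change 0.62, SE 0.253, edgeR adjusted p = 0.470, exact permutation p = 0.112). Without MR1 the log2 fold changes of map3k6 and mapk6 were 0.29 and 0.09, and without MR1 and MR4 they were 0.17 and 0.14. In the other direction, mapkbp1 gave 0 to 0.390 CPM (median 0.313) in MR livers, against 0.143 to 2.24 CPM (median 0.553) in control livers, at a depth of few reads per fish (log2 fold change -1.47, SE 0.540, edgeR adjusted p = 0.411, exact permutation p = 0.0276).

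Dusp6 went with the choice of fish. The transcript given here, 1 of 3 dusp6 transcripts from 1 component, was read at 0.524 to 3.86 CPM (median 1.15) in MR livers. In control livers it was read at 1.34 to 3.43 CPM (median 2.07), with 4 MR fish below every control and MR1 above every control. Over all fish the log2 fold change was -0.43 (SE 0.319, edgeR quasi-likelihood adjusted p = 0.768, exact permutation p = 0.0866). Without MR1 and MR4 it was -1.22 by the exact test (adjusted p = 0.0338) and -1.23 by DESeq2 (adjusted p = 0.0212). Dusp6 was the 1 member called by each of them in that setting, beside 187 and 231 of all 62714 transcripts. The quasi-likelihood test called no member there, and 0 of all transcripts. Summed over its transcripts, dusp6 was at 1.70 to 8.51 CPM (median 2.86) in MR livers. The sum in control livers was 2.50 to 5.49 CPM (median 3.71), and only MR5 and MR6 lay below every control.

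The fibroblast and endothelial marker list stood lower in MR than in the controls. Its 12 genes summed to 241 to 393 CPM (median 343) in MR livers, against 372 to 494 CPM (median 449) in control livers. All 12 had negative log2 fold changes, and 8 had an unadjusted p below 0.05. The collagen genes col1a1a (log2 fold change -0.72, edgeR adjusted p = 0.0782) and col1a2 (-0.75, edgeR adjusted p = 0.0881) were called. Without MR1 and MR4 neither was called, though their log2 fold changes were still -0.63 and -0.59 (edgeR adjusted p = 0.258 and 0.305). Whether these cells bear on the member values was not tested.

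At the high Roundup dose 5 such members were higher and 3 lower, beside 4.08% and 3.26% of all transcripts. The same p38 and dusp1 transcripts had the smallest p. Mapk14a gave 0.792 to 6.86 CPM (median 2.16) in HR livers, against 0.477 to 1.76 CPM (median 1.14) in control livers, and 4 of 6 HR fish exceeded every control. The log2 fold change was 1.18 (SE 0.363, edgeR adjusted p = 0.379, exact permutation p = 0.0392), and 0.58 without HR3. Dusp1 gave 1.17 to 5.79 CPM (median 1.53) in HR livers, against 0.258 to 2.05 CPM (median 1.19) in control livers, with HR1 (5.79 CPM) and HR3 (4.74 CPM) above every control. Its log2 fold change was 1.16 (SE 0.363, edgeR adjusted p = 0.381, exact permutation p = 0.0254), and 0.91 without HR3. HR1, the highest fish, stayed in that fit, and no fit left out both HR1 and HR3. Summed over its transcripts, dusp1 was at 1.51 to 3.44 CPM in the remaining HR fish, against 0.773 to 3.34 CPM (median 1.72) in controls.

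Mapk14b gave 8.13 to 50.2 CPM (median 14.4) in HR livers, against 6.49 to 16.1 CPM (median 10.4) in control livers (log2 fold change 0.80, SE 0.296, edgeR adjusted p = 0.507, exact permutation p = 0.101), and its log2 fold change was 0.25 without HR3. The JNK gene mapk8b gave 0.659 to 1.62 CPM (median 1.31) in HR livers, against 1.01 to 2.61 CPM (median 1.74) in control livers, with overlapping groups (log2 fold change -0.44, SE 0.222, edgeR adjusted p = 0.701, exact permutation p = 0.0707). Map3k6 had a log2 fold change of -0.08 in HR (edgeR adjusted p = 0.966).

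At the low glyphosate dose 13 such members were higher and 3 lower, beside 4.49% and 2.24% of all transcripts. Map3k6 had the smallest p of the members. It was read at 15.8 to 50.1 CPM (median 17.9) in LG livers, against 8.59 to 20.3 CPM (median 12.0) in control livers. All 6 LG fish lay above the control median and LG1, at 50.1 CPM, lay above every control. The log2 fold change was 0.88 (SE 0.225, edgeR quasi-likelihood adjusted p = 0.415, exact test adjusted p = 0.0698, exact permutation p = 0.00097), and 0.51 without LG1. The second map3k6 transcript had a log2 fold change of 0.62 (edgeR adjusted p = 0.589, exact permutation p = 0.00964), with all 6 LG fish above the control median, and 0.31 without LG1.

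Dusp1 gave 0.660 to 18.7 CPM (median 1.64) in LG livers, against 0.258 to 2.05 CPM (median 1.19) in control livers. LG1 (18.7 CPM) and LG3 (4.21 CPM) exceeded every control. The log2 fold change was 1.93 (SE 0.512, edgeR quasi-likelihood adjusted p = 0.464, exact test adjusted p = 0.0240, exact permutation p = 0.0624), and 0.65 without LG1. LG3 stayed in that fit, and no fit left out both LG1 and LG3. Summed over its transcripts, dusp1 was at 1.32 to 2.86 CPM in the remaining LG fish, within the control range of 0.773 to 3.34 CPM. The other dusp1 transcript, from a second component, had a log2 fold change of 1.91 (edgeR quasi-likelihood adjusted p = 0.464, exact test adjusted p = 0.0340), and 0.80 without LG1. Without LG1 the exact test called no member in LG, beside 8 of all 63513 transcripts, where it had called 283 with all fish.

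Mapk14a gave 0.720 to 4.92 CPM (median 1.79) in LG livers, against 0.477 to 1.76 CPM (median 1.14) in control livers, with 3 of 6 LG fish above every control (log2 fold change 1.1, SE 0.338, edgeR adjusted p = 0.538, exact permutation p = 0.0351). Without LG1 it was 0.81. Mapk14b had a log2 fold change of 0.66 (SE 0.238, edgeR adjusted p = 0.621, exact permutation p = 0.0420), and it was 0.47 without LG1 and 0.45 without LG3.

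At the high glyphosate dose 3 such members were higher and 5 lower, beside 3.22% and 3.26% of all transcripts. The p38 and dusp1 transcripts were not among the members with the smallest p. The ASK1 kinase map3k5 gave 16.3 to 32.6 CPM (median 23.0) in HG livers, against 24.2 to 42.6 CPM (median 31.0) in control livers. Of the 6 HG fish 4 lay below every control (log2 fold change -0.40, SE 0.160, edgeR adjusted p = 0.743, exact permutation p = 0.0186). HG1 was the lowest HG fish for the map3k5 gene sum, at 18.8 CPM against 27.6 to 49.0 CPM in controls. Mapkapk3 gave 5.82 to 11.4 CPM (median 7.31) in HG livers, against 3.66 to 7.87 CPM (median 5.80) in control livers, with all 6 HG fish above the control median (log2 fold change 0.38, SE 0.165, edgeR adjusted p = 0.750, exact permutation p = 0.0323), and its log2 fold change was 0.23 without HG1.

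Map2k4a, an activator of JNK, gave 0.507 to 1.37 CPM (median 0.926) in HG livers, against 0.521 to 1.86 CPM (median 1.42) in control livers (log2 fold change -0.53, SE 0.245, edgeR adjusted p = 0.759, exact permutation p = 0.0445). The same transcript, 1 of 4 of map2k4a, had a log2 fold change of -0.73 in LG (edgeR adjusted p = 0.627, exact permutation p = 0.0113), and its component also held map2k4b transcripts. Summed over its transcripts, map2k4a averaged 4.66 ± 0.66 CPM in LG and 4.53 ± 0.829 CPM in HG, against 5.04 ± 0.911 CPM in controls (SD). Of the 5 MAP2 kinase gene sums, 0 had an unadjusted p below 0.05 by the quasi-likelihood test in LG or in HG. Map3k7 (TAK1, which links cytokine receptors to p38 and JNK) gave 0.326 to 1.49 CPM (median 0.914) in HG livers, against 0.822 to 2.16 CPM (median 1.27) in control livers (log2 fold change -0.52, SE 0.257, edgeR adjusted p = 0.774, exact permutation p = 0.0288). In HG the log2 fold changes of mapk14a and mapk14b were 0.03 and 0.07 (adjusted p = 0.993 and 0.977), that of map3k6 was -0.24 (adjusted p = 0.872) and that of dusp1 was 0.76 (adjusted p = 0.783) and 0.15 without HG5.

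**Figure D3:**
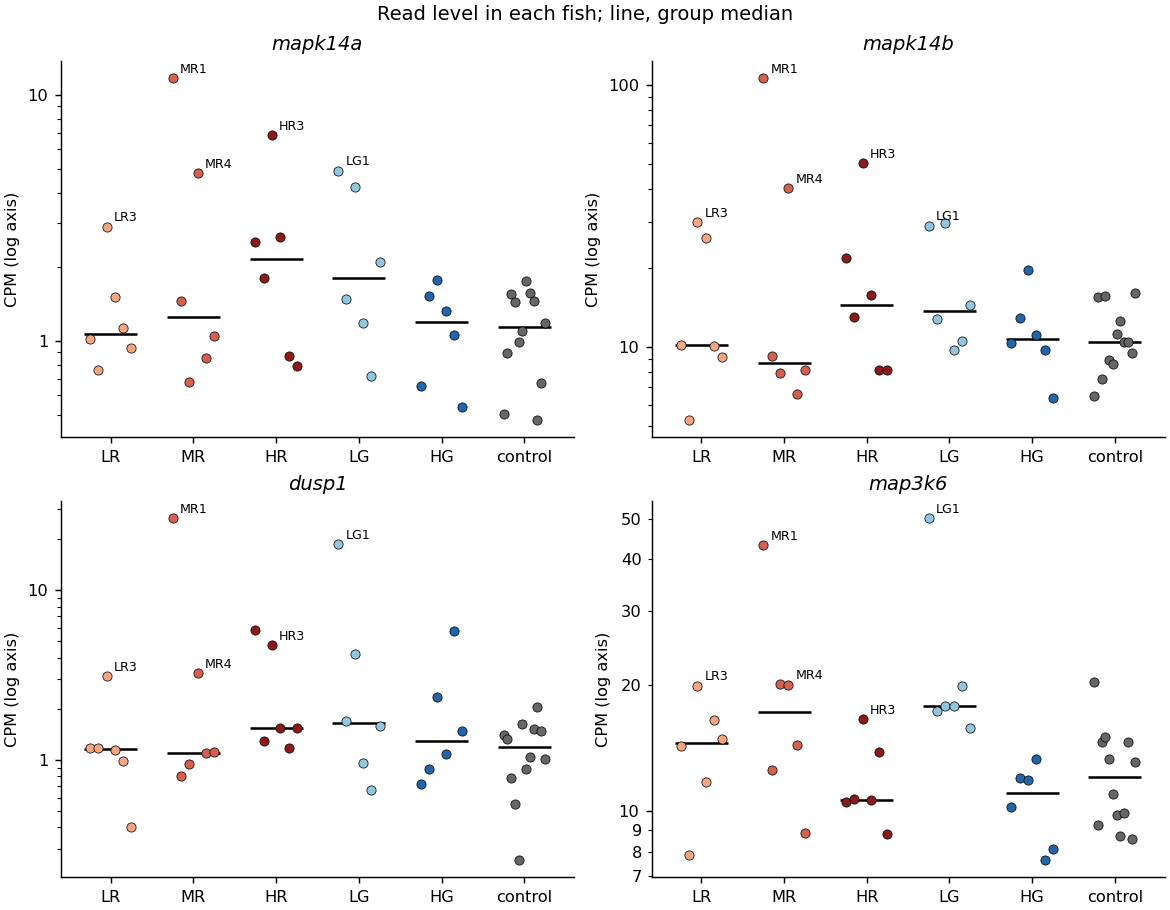
Read level in each fish (y axes, CPM, log scale) of the most expressed transcripts of mapk14a, mapk14b, dusp1 and map3k6 in the 5 exposed groups and the controls (x axes), with the median as a line. The 5 labelled fish stand farthest from their groups over all transcripts. MR1 is the highest MR fish in all 4 panels, at 11.7, 106, 26.5 and 43.1 CPM, while the group medians differ far less.

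The high values of mapk14a, mapk14b and dusp1 came from shared fish, which was noticed after the values were seen and is given as a count only. Of the 30 exposed fish, 8 exceeded every control for all 3 transcripts: LR3, MR1, MR4, HR1, HR3, LG1, LG3 and HG3. Outside these 8, mapk14a was above every control in 3 exposed fish, mapk14b in 1 and dusp1 in 1. Each exposed group held 1 or 2 of the 8. Of the 21 transcription factors and early response genes found, which are described below, 4 were counted in this way. All 8 fish exceeded every control for fosl2 and atf3, 6 did for junba and 4 for egr1. Of the other exposed fish, 3 did for fosl2, 5 for atf3, 2 for junba and 1 for egr1. These 4 genes do not stand for the whole list. Srf, from the same list, was below every control in LR3, MR1, MR4, HR3, LG1 and HG3. In HR1 and LG3 srf lay within the control range. Among the other exposed fish, HG1 (6.32 CPM) and HG2 (7.66 CPM) were also below the lowest control for srf (9.07 CPM). MR1 and LG1 were also above every control for map3k6, as no other exposed fish was.

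Across the 130 member transcripts listed in all 5 tables, a single exposed fish had 2 to 40 (median 12) above every control and 4 to 31 (median 11) below every control. LG1 and MR1 had most above, with 40 and 37 members (30.8% and 28.5%), beside 23.2% and 19.4% of all transcripts in the same fish. HG1 had most below, with 31 members (23.8%) beside 11.9% of all transcripts. LR3 and HR3, with 20 and 21 members above (15.4% and 16.2%), were near their shares over all transcripts (15.6% and 14.1%). LR5 had 20 members above (15.4% beside 8.53%), LG3 17 (13.1% beside 7.05%) and LR1 17 (13.1% beside 7.22%), and LR2 had 18 below (13.8% beside 7.34%).

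**Figure D4:**
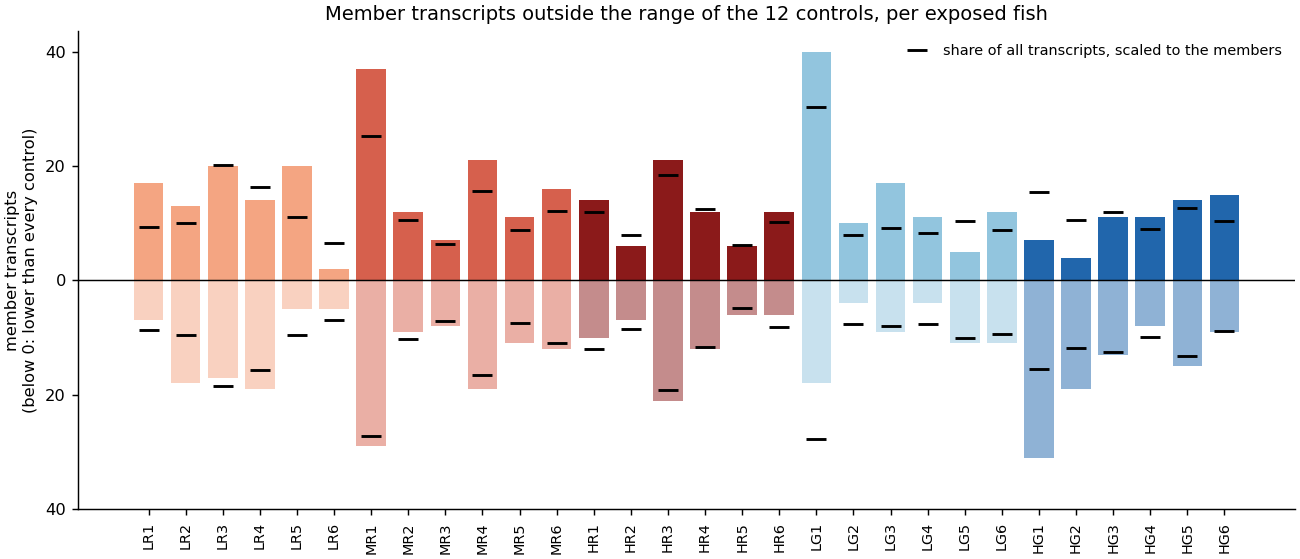
Number of the 130 member transcripts above (upward bars) and below (downward bars) every one of the 12 controls in each exposed fish (x axis). Black ticks give the share of all transcripts in that fish scaled to 130. The highest bars are LG1 (40 above) and MR1 (37 above) and the lowest is HG1 (31 below), and LR5 and LG3 also reach above their ticks, at 20 and 17 members.

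The following 2 genes were chosen after the values of their transcripts were seen. The minor mapkapk3 transcript was read at 0.426 to 4.01 CPM (median 1.57) in LR, 0.498 to 5.14 CPM (median 0.885) in MR, 0.950 to 2.74 CPM (median 1.25) in HR and 0.524 to 7.59 CPM (median 0.972) in LG livers, against 0.444 to 1.39 CPM (median 0.889) in control livers. Its log2 fold changes were 1.1, 1.15, 0.81 and 1.19 (edgeR adjusted p = 0.459, 0.411, 0.456 and 0.614), and 0.07 in HG. Without LR3 the value was 0.79 in LR, without MR1 and MR4 it was -0.29 in MR, without HR3 0.59 in HR and without LG1 0.23 in LG. The major mapkapk3 transcript had 0.09, -0.27, -0.30, -0.02 and 0.38 in LR, MR, HR, LG and HG. Both came from 1 component, and reads were assigned to a single transcript each. For map3k8 (Tpl2, an activator of the ERK branch in inflammation) the log2 fold changes of its transcripts were 0.69 and 0.51 for LR, 0.96 and 0.61 for MR, 0.71 and 0.59 for HR, 0.90 and 0.52 for LG, and for HG 0.03 and -0.08, and none was called. Without MR1 and MR4 the MR values were 0.02 and -0.00, without HR3 the HR values were 0.43 and 0.43, and without LG1 the LG values were 0.66 and 0.09. In LR the second transcript had 0.12 without LR4.

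Roundup and glyphosate were compared directly at the 2 doses they shared, over 135 members each. At 0.01 mg/L, LR against LG gave 0 calls by the quasi-likelihood test, the exact test or DESeq2, beside 0%, 0.0213% and 0% of all transcripts. At an unadjusted p below 0.05 there were 4 members, or 2.96%, beside 2.5% of all transcripts. All 4 were lower in LR, as were 1.49% of all transcripts, while 1.01% were higher. Dusp5 averaged 3.15 ± 0.614 CPM in LR and 4.39 ± 0.896 CPM in LG (SD, n = 6 each), a log2 difference of -0.47 (95% interval -0.91 to -0.04, edgeR adjusted p = 1.00, exact permutation p = 0.0281). Map3k6 averaged 14.2 ± 4.12 CPM in LR and 23.1 ± 13.3 CPM in LG, a log2 difference of -0.71 (95% interval -1.38 to -0.04, edgeR adjusted p = 1.00, exact permutation p = 0.0433), and the difference was -0.33 without LG1. Dusp1 averaged 1.33 ± 0.921 CPM in LR and 4.63 ± 7.00 CPM in LG, a log2 difference of -1.81 (95% interval -3.49 to -0.13, exact permutation p = 0.251) that was -0.52 without LG1. The 95% interval held 0 for 132 of the 135 members at 0.01 mg/L, and for the median member it reached 0.70 to either side of the estimate on the log2 scale.

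At 10 mg/L, HR against HG gave 0 calls by each of the 3 tests, beside 0% of all transcripts by the quasi-likelihood test, 0.0114% by the exact test and 0.0507% by DESeq2. At an unadjusted p below 0.05 there were 7 members (5.19%), beside 5.72% of all transcripts. Of the 7 members 5 were higher in HR and 2 lower, beside 3.22% and 2.5% of all transcripts. Mapkapk3 averaged 4.8 ± 1.69 CPM in HR and 7.68 ± 1.99 CPM in HG, a log2 difference of -0.68 (95% interval -1.20 to -0.15, edgeR adjusted p = 0.872, exact permutation p = 0.0216). Mapk14a averaged 2.58 ± 2.24 CPM in HR and 1.14 ± 0.486 CPM in HG, a log2 difference of 1.14 (95% interval 0.06 to 2.23, edgeR adjusted p = 0.873, exact permutation p = 0.128) that was 0.55 without HR3. Map3k2, an activator of the ERK5 branch, averaged 1.08 ± 0.246 CPM in HR and 0.651 ± 0.266 CPM in HG, a log2 difference of 0.71 (95% interval 0.05 to 1.36, edgeR adjusted p = 0.873, exact permutation p = 0.0130). The 95% interval held 0 for 128 of the 135 members. Of the 11 leukocyte marker genes 7 had an unadjusted p below 0.05, all higher in HR, beside 2.83% of all gene sums higher and 2.4% lower. The median log2 difference over the list was 0.46, and the part of these genes in the member values was not tested.

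The wider pathway was followed with lists of genes around the cascade, tested as gene sums. Of 36 transcription factors and early response genes listed, 21 were found. For LR 5 of 19 tested had an unadjusted p below 0.05 (2 higher, 3 lower), beside 5.1% of all gene sums higher and 4.22% lower. For MR it was 9 of 20 (7 higher, 2 lower) beside 6.87% and 4.72%, and for HR 6 of 21 (5 higher, 1 lower) beside 4.97% and 3.48%. For LG it was 6 of 20 (all higher) beside 5.19% and 2.35%, and for HG 4 of 20 (2 higher, 2 lower) beside 3.43% and 3.82%. Only fosl2 in MR was called (log2 fold change 3.65, SE 0.785, edgeR adjusted p = 0.0881), where 0.271% of all gene sums were called. Its value was 63.8 CPM in MR1 and 7.75 CPM in MR4, against 0.0858 to 2.11 CPM in controls, and without MR1 and MR4 the log2 fold change was -0.03 (adjusted p = 0.994). The counts of this list were not repeated without the fish farthest from their groups.

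Upstream of the cascade, 5 of 16 stress adaptors had an unadjusted p below 0.05 in HR (all higher), 4 of 16 in MR (all higher) and 4 of 16 in LG (3 higher, 1 lower). In HG it was 2 of 16 and in LR 1 of 16, and none was called. These counts stand beside 8.45%, 11.6%, 7.54%, 7.25% and 9.33% of all gene sums for HR, MR, LG, HG and LR. MR1, HR3 and LG1 were the highest fish of their groups for traf2b (11.2, 7.235 and 8.50 CPM, against 1.86 to 4.32 CPM in controls). The same fish were highest for cdc42 (73.6, 60.75 and 55.1 CPM, against 19.7 to 31.9 CPM). Traf2b and cdc42 were picked from the list and do not stand for the whole of it. Tab1, from the same list, was below every control in MR1 (3.07 CPM) and HR3 (3.43 CPM), against 4.03 to 7.48 CPM in controls. In LG1 tab1 lay within the control range (6.53 CPM). The counts were not repeated without MR1, HR3 and LG1. Among 14 Ras and Raf pathway genes at most 1 had an unadjusted p below 0.05 in any exposed group against the controls. The same was true of 11 other inhibitors of the cascade (sprouty, spred and others), and none of the 4 ribosomal S6 kinases, which ERK activates, passed that level in any group.

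**Figure D5:**
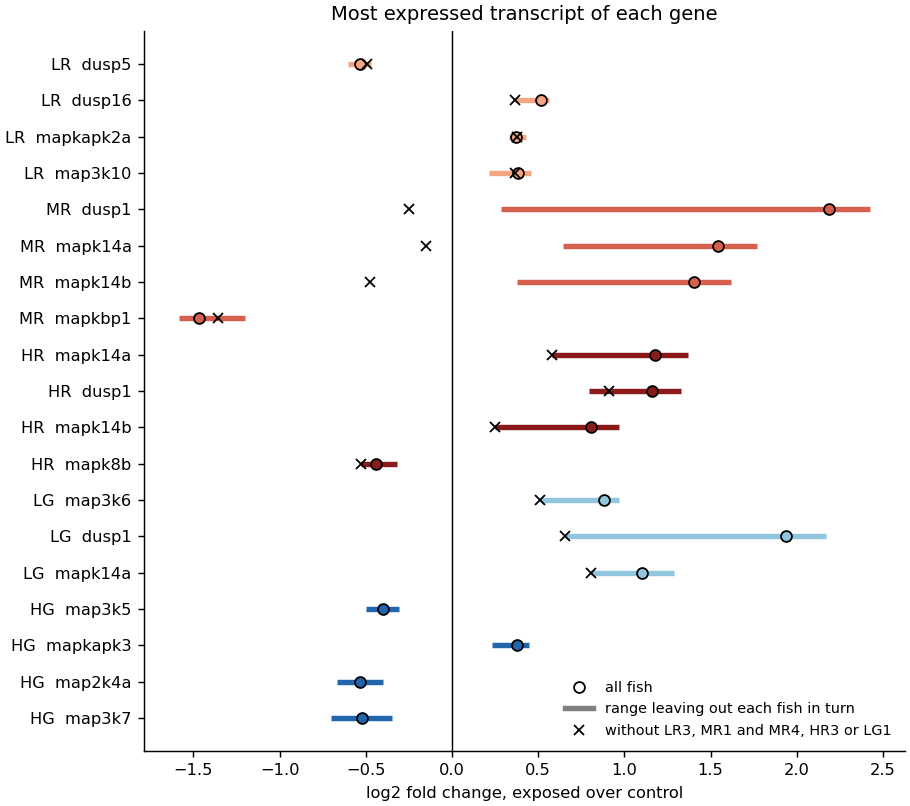
log2 fold change over the 12 controls (x axis) of the genes with the smallest p in each exposed group (rows, 3 for LG and 4 for each other group), with all fish (circles), the range when each fish is left out in turn (bars) and without the fish farthest from their groups (crosses, HG has none). Dusp1, mapk14a and mapk14b in MR span 0.28 to 2.42, 0.65 to 1.77 and 0.38 to 1.62, and their crosses lie below 0.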

How the data were processed

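The count values are raw reads per Trinity transcript that the authors obtained by mapping reads with Bowtie2 2.1.0, 1 hit per read, and counting them with SAMtools 0.1.18. Reads of near-identical copies, common in salmonids, could therefore fall on either copy. The deposited tables also hold the authors' edgeR log2 fold changes, mean log2 CPM, p-values and call scores, which were not used. Control counts were identical in all 5 tables (2921316 values compared), and 1 repeated header line was dropped from the HR table. MG (3 fish) was not analysed here. Here edgeR 4.0.16 in R 4.3.3 was run with TMM factors. CPM used 1 set of TMM library sizes over the transcripts shared by the 5 tables. Standard errors came from the F statistic, and 95% intervals from them with residual degrees of freedom. Exact permutation tests used differences of mean log2 CPM (prior count 2) over all 18564 splits of the fish into 12 and 6 (smallest p 5.39e-05), or 924 into 6 and 6. Tests were checked on simulated data with the same fold change in every exposed fish, set on transcripts with many reads. That check does not cover fish far from their group or changes in members with few reads.

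The members and lists were chosen with earlier results of these data known. Named were members called, the 4 genes of smallest p per exposed group, the 3 with most reads per role, the 5 of largest and 3 of smallest coefficient of variation in controls, and mapk14a, mapk14b and map3k6, which the study names from these fish. Alternatives were RLE factors, no filter or more than 1 CPM in 6 fish, the exact test (prior degrees of freedom 10), DESeq2 1.42.0, the replicate number as a block, each fish left out, and an adjusted p below 0.05. 6 of the 64 components hold transcripts of more than 1 member gene. 1 gene that this rule names is not reported here and is left out of the plots, though it counts in the totals.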

Additional observations from a re-analysis of the deposited data

Results flagged for a closer look

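Within the groups of 6 exposed fish, 75 sets of values were checked over 15 genes for a single fish far from the rest, and 17 held one. Chance marks about 1 in 20 sets of this kind, but these genes were named partly for their small p in the same fish and the sets share fish, so that rate is no yardstick for the 17. MR1 was the fish in 5 of the 17, LR3 and LG1 in 3 each and HR3 in 2.

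For dusp1 the far fish were LR3 at 3.11 CPM, MR1 at 26.5 CPM, LG1 at 18.7 CPM and HG5 at 5.71 CPM. For dusp16 they were LR3 at 8.30 CPM and MR1 at 12.2 CPM. For mapk14a they were LR3 at 2.90 CPM, MR1 at 11.7 CPM and HR3 at 6.86 CPM, and for mapk14b MR1 at 106 CPM and HR3 at 50.2 CPM. For map3k6 they were MR1 at 43.1 CPM and LG1 at 50.1 CPM. In mapkapk2a LG1 stood at 8.50 CPM and in mapkbp1 LR6 at 2.60 CPM. Low fish were HR4 for map3k5 at 20 CPM and LG6 for map3k7 at 0.393 CPM.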

How the results depend on the processing

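The count of members called was 0 with RLE factors, without a filter, with more than 1 CPM in 6 fish and at an adjusted p below 0.05, in all 7 comparisons. It was 3 in MR and 3 in LG with the exact test, and 1 in MR with DESeq2. The quasi-likelihood test called 13 transcripts of all for LR, 1 for MR, 4 for HR, 0 for LG and 1 for HG, where the exact test called 101, 622, 420, 283 and 35 and DESeq2 155, 466, 172, 32 and 22. Leaving out each fish in turn gave 0 to 0 calls of members in every comparison. Of all transcripts these fits called 0 to 21 in LR, 0 to 161 in MR, 0 to 132 in HR, 0 to 1 in LG and 0 to 2 in HG. The members at an unadjusted p below 0.05 numbered 5 to 15 in LR, 8 (without MR1) to 25 in MR and 5 (without HR3) to 12 in HR. In LG they numbered 7 (without LG1) to 17 and in HG 5 to 13. In settings chosen after seeing the data, without LR3, without MR1 and MR4, without HR3 or without LG1, the quasi-likelihood test called 0 members, and the exact test and DESeq2 called 1 each in MR (dusp6) and 0 elsewhere. Of all transcripts the quasi-likelihood test called 0 in each of these settings. The exact test called 42 in LR, 187 in MR, 18 in HR and 8 in LG, and DESeq2 called 61, 231, 27 and 9. The replicate numbers did not pair the fish, since in each comparison 1 to 3 of 6 same-numbered pairs correlated above 0.1, and with the replicate number as a block 0 members were called, with 7, 6, 5, 6 and 4 at an unadjusted p below 0.05 in LR, MR, HR, LG and HG. Of 5557 recomputed log2 fold changes of named members 5549 kept their side of the threshold and 8 passed it, all with the exact test or DESeq2. Taking the most expressed transcript of each gene in place of the gene sum also gave 0 calls. Member genes averaged 3.64 CPM at the median.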
